A study of Mus musculus with 16 samples.

Results

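The 9 genes described here encode the core of the transforming growth factor beta (TGF-beta) pathway: the ligands Tgfb1, Tgfb2 and Tgfb3, Ltbp1 and Ltbp2 of the family named latent TGF-beta binding proteins, the receptors Tgfbr1 and Tgfbr2, and the target genes Skil and Tgfbi. They were chosen by symbol as a named set around the receptor that one agent of the treatment blocks, and all 9 were found among the 37991 genes of the count table. The question is how these genes were expressed while mouse fibroblasts were exposed to a chemical mixture holding that inhibitor, and in the neural cells obtained from them.

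The starting cells (D0, 2 libraries) were tdMEFs, mouse embryonic fibroblasts of a 129xC57BL6 background in which Fsp1-Cre had recombined a ROSA26tdTomato reporter. Fsp1 is a gene used to mark fibroblasts, and its promoter therefore decides which cells carry the label. These cells were grown in serum medium and then moved to M9 medium, serum-free and at low oxygen, and sampled on days 4, 8 and 12 (D4, D8 and D12, 3 libraries each). M9 contained A83-01, an inhibitor of the type I receptors for TGF-beta, activin and nodal, together with CHIR99021 (a GSK3 inhibitor), LDN193189 (a BMP receptor inhibitor), Hh-Ag1.5 (a Hedgehog agonist), retinoic acid, SMER28, RG108, Parnate and bFGF. The ciNSLCs (3 libraries) are neural stem-like cells that M9 produced from tdMEFs, with the same reporter and background. The neural controls were SCR029, a neural stem cell line from the cortex of C57BL6 embryos, and primary neural progenitors (priNPC) from embryonic cortex of the 129xC57BL6 background, with 1 library each. The sample description of the priNPC library holds the tag tdNPC_FSP, which may refer to the tdTomato reporter and Fsp1-Cre. No group received A83-01 without the other agents, or M9 without A83-01, so the part of any one agent cannot be told apart from that of the others, of the change of medium or of oxygen. The labels do not state whether replicates were separate cultures or whether each ciNSLC library is a separate line, so the spread behind every p-value may be partly technical. In the sample descriptions each ciNSLC library has its own tag, ending in P4 for replicate 2 and in P2 for replicate 3. Whether these endings are passages is not stated.

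TGF-beta is secreted in a latent form, in which the mature dimer is held by its own propeptide, and latent TGF-beta binding proteins such as LTBP1 tether that complex to the extracellular matrix. Once released, the ligand binds TGFBR2, which phosphorylates TGFBR1, and the receptor pair phosphorylates SMAD2 and SMAD3, which enter the nucleus with SMAD4 and act on target genes. In fibroblasts the pathway is known for driving contractile and matrix genes.

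Between 29.4 and 55.5 M counts (M, mega) were assigned per library, and mitochondrial rRNA genes took 14.3% to 53%. That share was 22.6% and 14.3% at D0, 52.7% in replicate 1 of D4 and 49.7% in replicate 1 of D8, 16.5% to 26.4% in their replicates 2 and 3, 27.2% to 33.2% at D12 and 44.3% to 53% in ciNSLC. All comparisons were also run with these rRNA genes left out, which ended the Tgfbi call at D8 given below. Beyond that, the part of this share in the changes below was not tested. Levels are given as TMM-scaled CPM, that is counts scaled to a common library total and adjusted by the trimmed mean of M values. Sums over marker genes, and the shares of such sums, are of CPM not divided by length. Elsewhere levels of different genes are compared only after division by exon length in kb. The sample descriptions place replicate 1 of every group and SCR029 in batch 1, and replicates 2 and 3 and priNPC in batch 2. The second D0 library stood apart: all 14 myeloid markers exceeded their level in D0 replicate 1, by factors of 18.8 to 955, with summed levels of 3879 against 16.1 CPM. The myeloid sum was 251 to 256 CPM in the D4 libraries, 25.6, 96 and 95 CPM at D8, 14.5 to 16.6 CPM at D12 and at most 3.25 CPM in ciNSLC, so D4 and D8 lay between the D0 libraries. Summed levels of 10 fibroblast markers were 20132 and 22386 CPM at D0, 1564 to 10716 CPM from D4 to D12 and 21.2 to 116 CPM in ciNSLC. The collagen genes Col1a1, Col1a2 and Col3a1 made up 92.3% and 92.4% of that sum at D0. The other 7 markers summed to 1548 and 1709 CPM at D0, 646, 1666 and 1820 CPM at D4, 641, 2059 and 1983 CPM at D8, 2725, 3765 and 3550 CPM at D12 and 14 to 98.6 CPM in ciNSLC. Most of the D12 sum came from Dcn, encoding the matrix proteoglycan decorin, at 1762, 2412 and 2315 CPM against 165 and 329 CPM at D0, and Lum was higher too. Pdgfra, Pdgfrb, Thy1, S100a4 and Twist1 were lower in every D12 library than in both D0 libraries, for example Pdgfrb at 44.4, 20.9 and 19.6 CPM against 190 and 194 CPM, and S100a4 at 16.5, 11.7 and 12.2 CPM against 170 and 204 CPM. For 9 neural stem markers found in the table the sums were 71.3 and 111 CPM at D0, 374 to 1262 CPM at D12 and 3828 to 4608 CPM in ciNSLC, while 9 endothelial markers summed to 1.16 to 41.8 CPM in any library. Within the latter list Erg was at 36.4 and 34.3 CPM at D0 and at most 1.85 CPM later, whereas Emcn was at 0.312 and 0.0521 CPM at D0 and 33 to 35.6 CPM at D12, and Cdh5 reached 13.5 CPM at D8. Such bulk values cannot tell fewer cells of a type from less RNA per cell, and the part of these shifts in the changes below was not tested.

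Promoters of 3 members are shown because these genes passed the test in opposite directions on day 4 or day 8. RefSeq windows on GRCm38.p6, from 250 bases before to 50 after the start of the gene, matched 7 of the 9 members by symbol (all but Tgfb3 and Skil). Each is written 5′ to 3′ on the strand of the gene, and capitals mark CAGAC or its reverse complement GTCTG, the letters of the short SMAD-binding element. The Tgfb2 window lies at chr1:186705940-186706239 (minus strand), that of Ltbp2 at chr12:84876442-84876741 (minus strand) and that of Tgfbi at chr13:56609336-56609635 (plus strand).
Tgfb2: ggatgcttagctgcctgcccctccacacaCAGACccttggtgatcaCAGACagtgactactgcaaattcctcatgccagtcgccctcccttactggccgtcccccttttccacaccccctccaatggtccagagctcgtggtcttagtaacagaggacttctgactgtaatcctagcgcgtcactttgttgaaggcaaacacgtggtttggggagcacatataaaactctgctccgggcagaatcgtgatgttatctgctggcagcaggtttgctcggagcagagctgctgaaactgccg
Ltbp2: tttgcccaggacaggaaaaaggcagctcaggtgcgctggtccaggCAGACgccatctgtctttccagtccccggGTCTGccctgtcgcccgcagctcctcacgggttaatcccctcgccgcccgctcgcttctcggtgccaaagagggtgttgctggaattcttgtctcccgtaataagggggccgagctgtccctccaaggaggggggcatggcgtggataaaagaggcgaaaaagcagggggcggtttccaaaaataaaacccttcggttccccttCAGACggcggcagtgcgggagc
Tgfbi: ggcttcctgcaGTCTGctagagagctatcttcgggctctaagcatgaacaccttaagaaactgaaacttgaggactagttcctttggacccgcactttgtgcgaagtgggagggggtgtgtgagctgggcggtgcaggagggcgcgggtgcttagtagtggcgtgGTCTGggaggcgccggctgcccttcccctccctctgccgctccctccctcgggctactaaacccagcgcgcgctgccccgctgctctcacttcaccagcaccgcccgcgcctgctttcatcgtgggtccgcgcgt
The 5 letters, on either strand, occurred 2 times in the Tgfb2 window, 3 times in that of Ltbp2 and 2 times in that of Tgfbi. Of all 32851 RefSeq windows of 300 bases, 49.6% held them, so their presence does not set these genes apart. The longer palindrome GTCTAGAC, found in 0.213% of all windows, was in none of the 7 members. An E-box CACGTG, present in 7.15% of windows, occurred 1 time in that of Tgfb2, and TGACGTCA, the full cyclic AMP response element present in 1.79%, occurred 1 time in one of the 2 windows of Ltbp1. The AP-1 letters TGANTCA, present in 7.81% of windows, were in none of them. These are matches of letters and not sites shown to be bound.

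Among the 9 genes in the treated fibroblasts, Tgfb2 was the one called higher, Ltbp1 and Ltbp2 were each called lower on at least 1 day, and neither receptor gene was called on any day. In the treated fibroblasts Tgfb2 rose about 2.4-fold at D4, Ltbp2 fell about 59.4-fold at D4, Tgfbi fell at D8 and Ltbp1 fell at D12. Each of these 4 calls was lost when 1 of the D0 libraries was left out, with the values given for each gene in turn, and the Ltbp2 change at D4 then went from -5.89 to -4.68 and the Tgfbi change at D8 from -2.56 to -1.22. In ciNSLC 7 of the 9 were called lower than at D0, where 16.5% of all genes tested were called lower. Among these 7, the call of Tgfb2 was lost without D0 replicate 1 and that of Ltbp1 without D0 replicate 2. Changes are log2 changes of edgeR's quasi-likelihood test, and "called" means a p under 0.05 after Benjamini-Hochberg adjustment over all genes tested. The standard error (SE) is not given by that test. It was derived as the absolute log2 change divided by the square root of the test's F value, and is approximate for genes with few counts. At D4 against D0, 2 of 9 members were called, 1 higher and 1 lower, where 7.22% of 17455 genes tested were called (3.55% higher and 3.68% lower). D8 against D0 gave 1 member higher and 2 lower, with 7.15% of all genes called (4.1% higher and 3.05% lower). D12 against D0 gave 1 member lower, with 10.5% called (5.81% higher and 4.73% lower), a share close to 1 gene in 9. Between D12 and D4, 1 member was lower at D12, with 3.87% called (2.5% higher and 1.36% lower). The median log2 change of the 9 members was -0.56 at D4, -0.55 at D8 and -0.50 at D12, beside 0.02, 0.02 and 0.01 over all genes tested. These comparisons share the 2 D0 libraries and are not independent of each other.

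**Figure D1:**
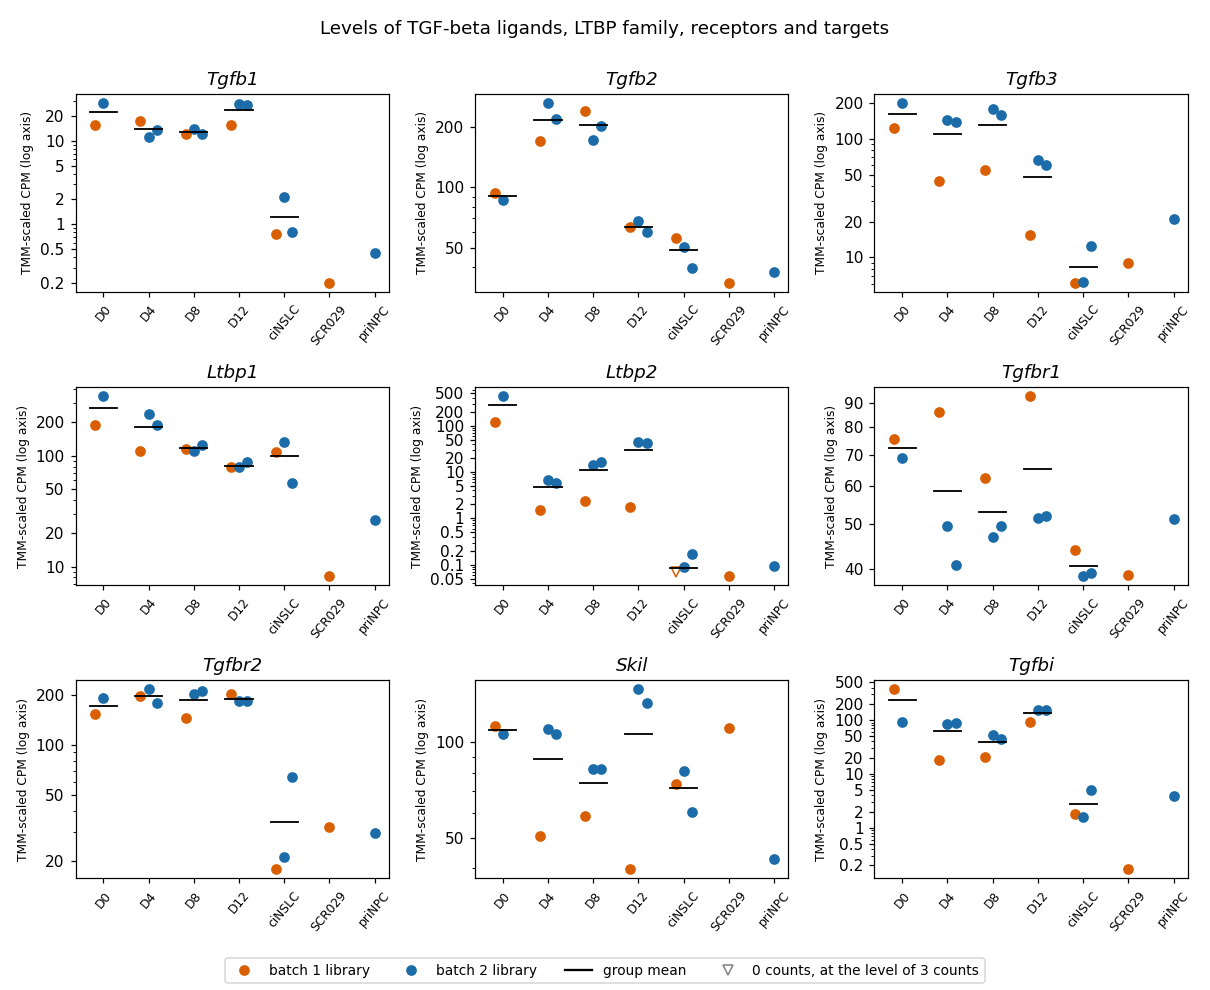
Level of each gene in every library, in TMM-scaled CPM on a log axis; orange points are batch 1, blue points batch 2, lines are group means, and an open triangle marks a library with 0 counts drawn at the level of 3 counts. Tgfb2 lies at 171 to 264 CPM at D4 against 93.8 and 86.5 CPM at D0, Ltbp2 is at 6.7 CPM or less in every D4 library, and batch 1 lies below batch 2 for Tgfb3 and Ltbp2 in each group from D0 to D12.

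Tgfb2, which encodes the TGF-beta 2 ligand and lies at chr1:188447065-188529871 in mm9, was at 93.8 and 86.5 CPM in the D0 libraries. At D4 its level was 171, 264 and 219 CPM and at D8 241, 172 and 203 CPM. Every D4 and D8 library thus lay above both D0 libraries. The log2 change was 1.27 (SE 0.25, adjusted p = 0.0093) at D4 and 1.19 (SE 0.25, adjusted p = 0.014) at D8. Within batch 1 the D4 change was 0.87 and within batch 2 it was 1.48, in the same direction. Both calls rest on both D0 libraries: without the myeloid-rich second one the changes were 1.22 and 1.13 with adjusted p = 0.084 and 0.11 in the same edgeR test, and without the first one 1.33 and 1.25 with adjusted p = 0.051 and 0.069. A fit of only the groups compared also ended them (adjusted p = 0.078 and 0.082).

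By D12 the Tgfb2 level had returned to 63.4, 67.6 and 59.8 CPM, below every D0 and D4 library. Against D4 this was a log2 change of -1.78 (SE 0.22, edgeR adjusted p = 0.0017), which remained called under each of the alternatives tried. Against D0 it was -0.50 (SE 0.24, adjusted p = 0.21), so a level lower than at the start was not shown. In ciNSLC Tgfb2 stood at 56, 50.5 and 39.6 CPM, lower than at D0 with a log2 change of -0.89 (SE 0.24, adjusted p = 0.013), a call lost without D0 replicate 1 (-0.83, adjusted p = 0.083) or ciNSLC replicate 3 (-0.71, adjusted p = 0.06). SCR029 held 33.4 CPM and priNPC 37.9 CPM. The order of the group levels was therefore D4, D8, D0, D12, ciNSLC, priNPC and SCR029, in which D4 and D8 overlapped, and neither D12 and ciNSLC (adjusted p = 0.21) nor ciNSLC and the controls (adjusted p = 0.45) differed by the test.

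Tgfb3, the ligand best known for its part in palate closure and at chr12:87397694-87419991, differed between the batches as well as between the days. It was at 123 and 201 CPM at D0, 43.9, 145 and 140 CPM at D4, and 54.9, 179 and 160 CPM at D8. Replicate 1 was the lowest library of every treated group. At D12 the levels were 15.4, 66 and 60.5 CPM, below both D0 libraries. The D12 change against D0 was -1.78 (SE 0.66, edgeR adjusted p = 0.11), and it was -3.00 within batch 1 and -1.67 within batch 2. With a batch term the edgeR value was -2.22 (adjusted p = 0.0015) and with the replicate number as a block -2.25 (adjusted p = 0.0032), so the call depends on whether the batch is modelled. In ciNSLC Tgfb3 was at 6.11, 6.23 and 12.5 CPM, all under every fibroblast library, with a log2 change of -4.29 against D0 (SE 0.71, adjusted p = 6.3e-04) and -2.51 against D12 (SE 0.63, adjusted p = 0.011). SCR029 held 8.92 CPM and priNPC 21 CPM.

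Tgfb1, encoding the most widely expressed of the ligands and located at chr7:26472021-26490096, was at 15.4 and 28.3 CPM at D0. The treated groups gave 17, 11.1 and 13.5 CPM at D4, 12.1, 13.9 and 12.1 CPM at D8, and 15.4, 27.6 and 26.5 CPM at D12. None of these differed from D0 by the test (log2 changes of -0.65, -0.78 and 0.08, with SE of 0.41, 0.41 and 0.42), and D4 and D12 overlapped D0. The ciNSLC libraries fell to 0.766, 2.09 and 0.812 CPM, a log2 change of -4.18 against D0 (SE 0.45, edgeR adjusted p = 2.7e-05). SCR029 had 7 counts of Tgfb1 (0.199 CPM) and priNPC 19 counts (0.453 CPM). Against the controls the ciNSLC level was 1.85 higher on the log2 scale (SE 0.53), which did not pass the test (adjusted p = 0.11).

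Scaled by exon length, the make-up of the ligand pool changed while its sum did not move beyond its spread until D12. The summed level of the 3 ligand genes was 75.1 ± 18.7 CPM per kb (SD, n = 2) at D0, 82.9 ± 24.6 (SD, n = 3) at D4, 86.2 ± 13.4 (SD, n = 3) at D8, 36.2 ± 11 (SD, n = 3) at D12 and 13 ± 0.744 (SD, n = 3) in ciNSLC. Tgfb2 made up 31.3% and 20.2% of that sum in the D0 libraries. Its share was 64.3%, 53.7% and 49.1% at D4, 70.4%, 37.8% and 44.6% at D8, and 55.4%, 31.6% and 30.4% at D12. All D4 and D8 libraries lay above D0, whereas the third D12 library at 30.4% lay within the D0 range. Tgfb3 held the larger share at D0, with 59% and 67.2%, and also in replicates 2 and 3 of D8, with 56.4% and 50.4%, and of D12, with 44.1% and 44%. In ciNSLC Tgfb2 was the main ligand transcript in every library, at 84.6%, 79.7% and 67.1%, compared with 71.8% in SCR029 and 55% in priNPC. No test was run on these shares, which are descriptions.

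**Figure D2:**
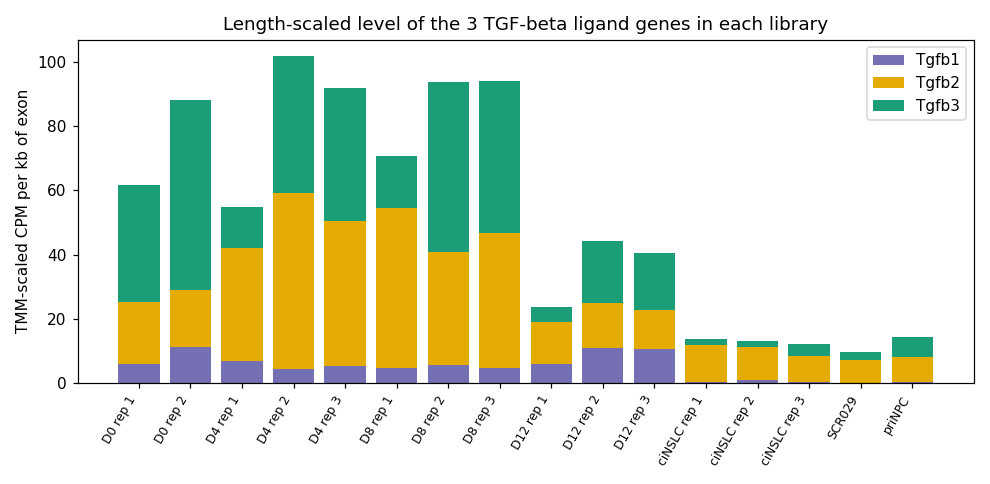
Stacked length-scaled levels of Tgfb1, Tgfb2 and Tgfb3 in each library, in TMM-scaled CPM per kb of exon. The Tgfb2 segment is larger in the D4 and D8 libraries than at D0, and the whole column is 12.2 to 13.7 CPM per kb in ciNSLC against 61.8 and 88.3 at D0.

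Ltbp2 and Ltbp1 both fell under treatment, by different amounts. The drop was called at D4 and D8 for Ltbp2 and at D12 for Ltbp1, yet every D8 and D12 library of both genes lay below both D0 libraries. LTBP1 binds the latent TGF-beta complex covalently and anchors it in the matrix, while LTBP2 is a matrix protein of elastic fibres that is not known to bind latent TGF-beta. Ltbp2 (chr12:86124162-86217482) was at 120 and 436 CPM at D0. It dropped to 1.54, 6.7 and 5.71 CPM at D4, and was at 2.35, 14 and 16.7 CPM at D8. All of these lay far below both D0 libraries, and the log2 change was -5.89 (SE 1.21, edgeR adjusted p = 0.012) at D4 and -4.66 (SE 1.15, adjusted p = 0.03) at D8. The drop was of like size in each batch at D4, -6.28 in batch 1 and -6.14 in batch 2.

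At D12 the batches parted for Ltbp2, with 1.76 CPM in replicate 1 against 44.6 and 42 CPM in replicates 2 and 3. All 3 values remained under the lower D0 library. The change against D0 was -3.24 (SE 1.09, edgeR adjusted p = 0.08), and that of D12 against D4 was 2.65 (SE 1.02, adjusted p = 0.2), from a log2 ratio of 0.19 in batch 1 and 2.80 in batch 2. With a batch term in the same test both passed, at -4.24 (adjusted p = 2.9e-04) and 2.19 (adjusted p = 0.013), as they did with the replicate block, at -4.28 (adjusted p = 8.3e-04) and 2.18 (adjusted p = 0.023). Leaving out the myeloid-rich D0 library, which holds the higher Ltbp2 level, left -4.68 at D4 (adjusted p = 0.066) and -3.45 at D8 (adjusted p = 0.16). The D8 call was also lost without any one D8 library (adjusted p = 0.069, 0.086 and 0.071), and both the D4 and D8 calls without the expression filter (D8 adjusted p = 0.1). In ciNSLC Ltbp2 was at the limit of detection, with 0, 2 and 5 counts in the 3 libraries, and SCR029 and priNPC had 2 and 4 counts. The fitted log2 change of ciNSLC against D0 was -11.77 (SE 1.65, adjusted p = 1.9e-04), a value that depends on how such small counts enter the fit.

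Ltbp1 (chr17:75404908-75791852) declined by degrees instead. Its levels were 190 and 345 CPM at D0, 111, 239 and 190 CPM at D4, 115, 110 and 126 CPM at D8, and 78.4, 78.8 and 87.8 CPM at D12. The D4 range overlapped D0, and the D8 and D12 libraries lay below it. Only the D12 value passed the test among these 3 comparisons, at -1.71 (SE 0.38, edgeR adjusted p = 0.013), against -1.19 (SE 0.37, adjusted p = 0.079) at D8. With a batch term the D8 change was called too, at -1.20 (adjusted p = 0.041). Without the second D0 library the D12 change was -1.22 (adjusted p = 0.14). In ciNSLC Ltbp1 was at 109, 134 and 56.8 CPM, overlapping D12 (log2 change 0.29, SE 0.34, adjusted p = 0.57) and lower than D0 by a log2 change of -1.42 (SE 0.38, adjusted p = 0.012), or -0.93 without D0 replicate 2 (adjusted p = 0.17).

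Ltbp1 was the member in which ciNSLC differed from the neural controls. SCR029 held 8.23 CPM and priNPC 26.4 CPM, both below the lowest ciNSLC library. The log2 change was 2.53 (SE 0.52, edgeR adjusted p = 0.028), and of 17636 genes tested in that comparison 1.53% were called (0.879% higher and 0.652% lower). The call was lost with priNPC as the only control (1.91, adjusted p = 0.11), in a fit of only these groups (2.53, adjusted p = 0.2) and without ciNSLC replicate 1 (2.44, adjusted p = 0.078) or replicate 2 (2.24, adjusted p = 0.092), and over all alternatives adjusted p ran from 4.8e-05 to 0.2. The 2 controls are different cell sources treated as one group, so the spread of that group includes their difference.

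Neither receptor gene was called at D4, D8 or D12. Tgfbr2, the type II receptor that binds the ligand (chr9:115993415-116084383), was at 152 and 190 CPM at D0, 196, 215 and 177 CPM at D4, 144, 201 and 209 CPM at D8, and 201, 182 and 183 CPM at D12. All of these groups overlapped, with log2 changes against D0 of 0.19, 0.11 and 0.14 and an SE of 0.43 each. After adjustment even a change beyond 2 SE could go uncalled, as that of Ltbp1 at D8 did (-1.19, SE 0.37, edgeR adjusted p = 0.079). A change of that many SE in Tgfbr2 is therefore not excluded. In ciNSLC the level was 17.9, 21.1 and 63.6 CPM, the third library standing above the other two and all under every fibroblast library. The log2 change was -2.32 against D0 (SE 0.43, edgeR adjusted p = 0.0014) and -2.46 against D12 (SE 0.41, adjusted p = 8.2e-04). SCR029 and priNPC gave 32 and 29.4 CPM, inside the ciNSLC range.

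Tgfbr1, the type I receptor that A83-01 inhibits (chr4:47366094-47427803), gave 75.6 and 68.9 CPM at D0 and 86, 49.4 and 40.8 CPM at D4. Levels at D8 were 62.4, 46.8 and 49.3 CPM and at D12 93.1, 51.3 and 51.8 CPM. Replicate 1 was the highest library in each treated group, opposite to Tgfb3. In ciNSLC the levels were 43.9, 38.7 and 39.3 CPM, with 38.8 CPM in SCR029 and 51.1 CPM in priNPC. The ciNSLC libraries lay below both D0 libraries, yet the log2 change of -0.83 (SE 0.33) missed the threshold (edgeR adjusted p = 0.077). It was called with a batch term (-0.75, adjusted p = 0.014), with the replicate block (-0.72, adjusted p = 0.029) and in the fit of only these groups (-0.82, adjusted p = 0.021). Per kb of exon Tgfbr2 was 21.2 ± 3.3 and Tgfbr1 11.1 ± 0.733 CPM at D0 (SD, n = 2), and in ciNSLC 4.22 ± 3.15 and 6.22 ± 0.436 (SD, n = 3). The ciNSLC libraries were not alike in this: Tgfbr2 was at 2.21, 2.61 and 7.86 CPM per kb and Tgfbr1 at 6.72, 5.92 and 6.01, so Tgfbr2 was the lower in replicates 1 and 2 and the higher in replicate 3.

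**Figure D3:**
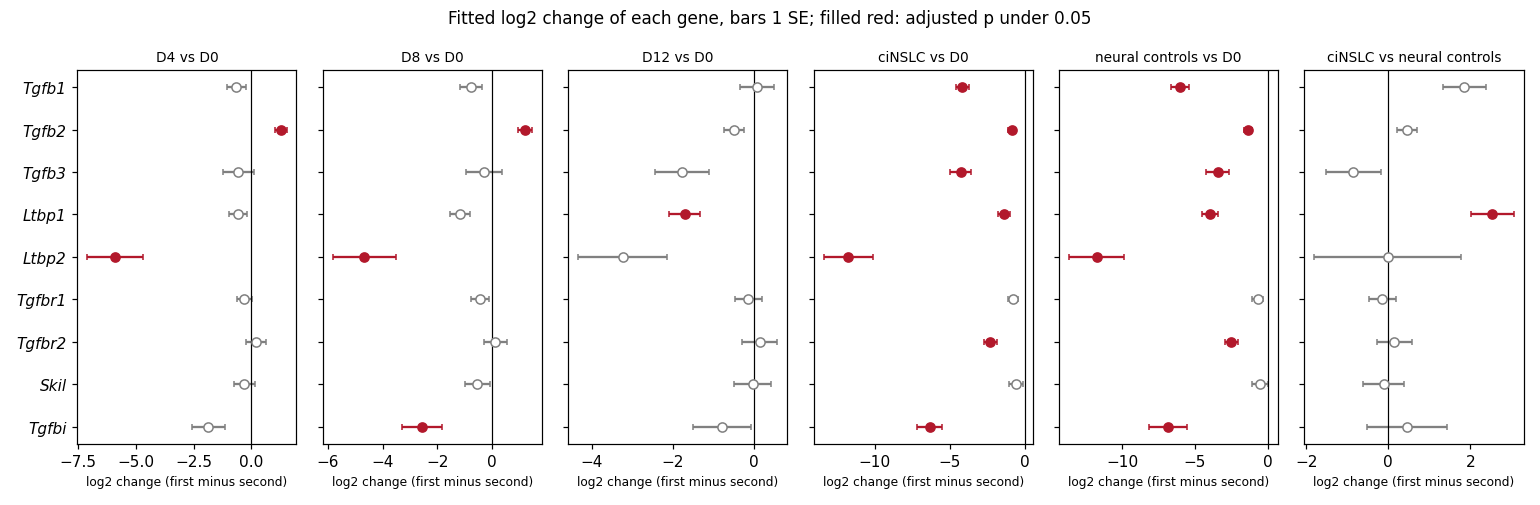
Fitted log2 change of each gene in 6 comparisons (first group minus second), with bars of 1 SE; filled red points have an adjusted p under 0.05, and each panel has its own x axis. Tgfb2 is the single member right of 0 and called at D4 and D8. In ciNSLC against D0 7 of the 9 are called lower, beside 16.5% of all genes tested.

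The target genes differed from each other. Tgfbi encodes a secreted matrix protein that was first found as a transcript induced by TGF-beta, and lies at chr13:56710920-56740923. Its D0 libraries were far apart, at 372 and 91.8 CPM. D4 gave 18.2, 85.7 and 87.1 CPM, D8 20.7, 52.5 and 44.7 CPM, and D12 92, 157 and 154 CPM. All D4 and D8 libraries were under both D0 libraries, and D12 overlapped them. The D8 change of -2.56 (SE 0.72) only just passed the test (edgeR adjusted p = 0.0497) and was kept in 5 of 16 alternatives, while D4 gave -1.87 (SE 0.71, adjusted p = 0.14) and D12 -0.79 (SE 0.71, adjusted p = 0.56).

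Within batch 1 the Tgfbi change at D4 was -4.35 and within batch 2 it was -0.09, so the pooled value averages unlike batches. At D8 these were -4.17 and -0.92, and at D12 they had opposite signs, -2.02 and 0.76. Without the first D0 library the D8 change was -1.22 (edgeR adjusted p = 0.51), and without the second it was -3.24 (adjusted p = 0.037). The D8 call was also lost without any one D8 library (adjusted p = 0.12, 0.095 and 0.12), with voom (0.075), with upper-quartile scaling (0.058), in a fit of only the groups compared (0.09) and with other filters. With the mitochondrial rRNA genes left out the D8 change was -2.54 (edgeR adjusted p = 0.053). With a batch term the D4 and D8 changes were -2.43 (adjusted p = 0.0482) and -3.05 (adjusted p = 0.018). In ciNSLC the level was 1.81, 1.6 and 5.04 CPM, with a log2 change of -6.36 against D0 (SE 0.83, adjusted p = 1.2e-04) and -5.57 against D12 (SE 0.78, adjusted p = 2.7e-04), lower than every fibroblast library. SCR029 held 6 counts (0.17 CPM) and priNPC 3.91 CPM.

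Skil encodes SnoN, a SMAD co-repressor that TGF-beta signalling induces in many cells and that acts as feedback, and lies at chr3:30993980-31021499. Its level was 113 and 106 CPM at D0, 50.5, 110 and 106 CPM at D4, 58.6, 82.7 and 82.7 CPM at D8, and 39.8, 147 and 133 CPM at D12. Replicate 1 was again the lowest of each treated group. Skil was not called in any of the 8 comparisons, with log2 changes against D0 of -0.30 (SE 0.45), -0.55 (SE 0.45) and -0.04 (SE 0.46) at D4, D8 and D12. Among the alternatives it was called lower in ciNSLC than at D12 in batch 2 libraries only and without D12 replicate 1. Over all alternatives that change ran from -0.96 to -0.27, and that of the controls against D0 from -1.31 to 0.01. The batch 2 fit of the controls against D0, with 1 library on each side, is not counted among these calls. The log2 ratio of Skil levels between those libraries was -1.30. Batch 1 and batch 2 differed in sign at D4 (-1.16 and 0.02) and D12 (-1.51 and 0.40). In ciNSLC it held 73.9, 81 and 60.3 CPM, with 111 CPM in SCR029 and 43 CPM in priNPC on either side.

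In ciNSLC against D0, 7 of 9 members were lower and none higher, where 28.2% of the genes tested were called (11.7% higher and 16.5% lower). The members' median was -2.32 and that of all genes -0.07. Against D12, 5 members were lower (Tgfb1, Tgfb3, Ltbp2, Tgfbr2 and Tgfbi), where 27.5% of genes were called (11% higher and 16.5% lower), and Tgfb2 and Ltbp1 were called against D0 but not against D12. With voom the Ltbp2 call against D12 was lost (-8.05, adjusted p = 0.07). The neural controls were lower than D0 in the same 7 members as ciNSLC, Tgfb1, Tgfb2, Tgfb3, Ltbp1, Ltbp2, Tgfbr2 and Tgfbi, where 23.9% of 17636 genes were called (10.1% higher and 13.8% lower). In a fit of only the groups compared the controls' Tgfb2 and Tgfbi calls were lost (edgeR adjusted p = 0.056 and 0.074), and with priNPC as the only control that of Tgfb3 (adjusted p = 0.073). Both comparisons use the D0 libraries, and their values side by side were -4.18 and -6.04 for Tgfb1, -0.89 and -1.34 for Tgfb2, -4.29 and -3.44 for Tgfb3, and -1.42 and -3.95 for Ltbp1. For Tgfbr2 they were -2.32 and -2.48, and for Tgfbi -6.36 and -6.82. Tgfbr1 and Skil were called in neither.

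A wider set of 59 pathway genes in 5 lists gave the setting. Of 19 other target genes, 7 fell and 1 rose at D4, 5 fell and 1 rose at D8, and 5 fell and 1 rose at D12, with median log2 changes of -1.85, -1.31 and -1.44 beside all-gene medians between 0.01 and 0.02. Over all genes 7.22%, 7.15% and 10.5% were called at these days. With a batch term the list gave 10 lower and 1 higher at D4 and at D8, and 9 lower and 1 higher at D12. That fit called 2328, 2185 and 2868 of all genes on these days, against 1261, 1248 and 1840 without the term. A fit of only the groups compared gave 4 lower at D4 and 2 lower and 1 higher at D8. At D12 it gave 7 lower and 1 higher, and it called 548, 550 and 898 of all genes on these days. Lox, encoding the collagen cross-linking enzyme lysyl oxidase, was at 2393 and 2809 CPM at D0, 56.5, 341 and 347 CPM at D4, 145, 401 and 390 CPM at D8, and 41.5, 147 and 132 CPM at D12, with a log2 change of -4.60 at D12 (SE 0.75, edgeR adjusted p = 0.0027). Unlike those of Tgfbi its D0 libraries lay close together, and every treated library was far below both. The smooth-muscle contractile genes Tagln (-4.12, SE 0.42, adjusted p = 1.8e-04), Cnn1 (-4.13, SE 0.54, adjusted p = 8.7e-04) and Acta2 (-3.66, SE 0.51, adjusted p = 0.0011) fell at D4, and Cnn1 (-4.55) and Acta2 (-3.60) were also lower at D12. At D8 Cnn1 was lower by a log2 change of -2.21 (SE 0.51, adjusted p = 0.021), a call lost without D0 replicate 2 or D8 replicate 2 or 3 (adjusted p = 0.12, 0.078 and 0.064). Smad7, the inhibitory SMAD of the feedback loop, fell by 1.47 on the log2 scale at D8 (SE 0.30, adjusted p = 0.012), as did the matrix gene Fn1 with a change of -2.56 (SE 0.53, adjusted p = 0.012). The Smad7 call was lost without D0 replicate 1 (-1.35, adjusted p = 0.073) and the Fn1 call without D0 replicate 2 (-2.20, adjusted p = 0.075).

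Cdkn2b moved the other way. This gene encodes the cell-cycle inhibitor p15, which TGF-beta induces in epithelial cells, and was at 28.7 and 22.7 CPM at D0 and 97.4, 55 and 60.1 CPM at D4. The treated libraries all lay above D0, with a log2 change of 1.46 (SE 0.31, edgeR adjusted p = 0.013) at D4, 1.49 (SE 0.31, adjusted p = 0.013) at D8 and 1.39 (SE 0.31, adjusted p = 0.013) at D12. Without the second D0 library it was not called at any of these times, with adjusted p of up to 0.12. Between D12 and D4 Tagln was the one called gene of the list, 1.90 higher at D12 (SE 0.37, adjusted p = 0.015). That call was lost without D4 replicate 2 or 3 (adjusted p = 0.067 and 0.069), and 3.87% of all genes were called in this comparison. With a batch term 2 of the list and 1400 of all genes were called, against 675 of all genes without the term. Col1a1, Col1a2 and Col3a1 stand both in this list and among the fibroblast markers, so the marker sum is not a separate measure. Of the 7 other markers, given above, 5 were lower at D12 than at D0 and 2 higher. The myeloid sum at D4, 251 to 256 CPM, lay between 16.1 CPM in D0 replicate 1 and 3879 CPM in D0 replicate 2. Their part in these changes was not tested.

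**Figure D4:**
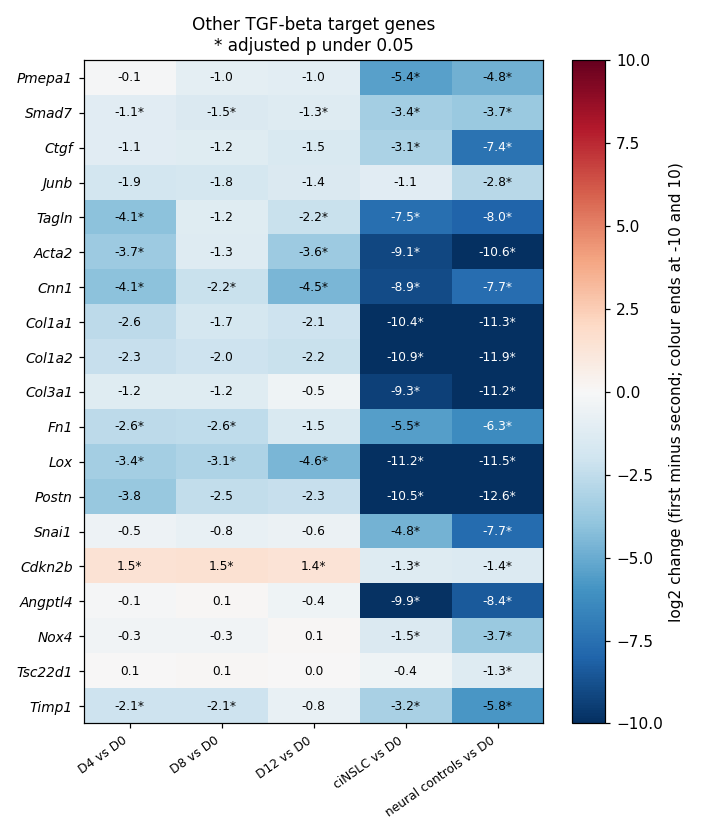
Fitted log2 change of 19 other TGF-beta target genes in 5 comparisons (columns), with blue for lower and red for higher in the first group and an asterisk at an adjusted p under 0.05. Smad7, Cnn1 and Lox are lower and marked at D4, D8 and D12, Cdkn2b is higher and marked at all 3 days, and 17 of 19 are lower in ciNSLC against D0.

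In ciNSLC 17 of these 19 targets were lower than at D0 and none higher, with a median of -5.53, where 16.5% of all genes were called lower and the median was -0.07. Against D12 16 were lower, with a median of -4.40, beside 16.5% and -0.09 over all genes. Acta2 was at 5.09, 5.12 and 2.2 CPM in ciNSLC against 2306 and 2358 CPM at D0 (log2 change -9.14, SE 0.63, edgeR adjusted p = 1.2e-06), and Tagln (-7.52) and Cnn1 (-8.95) were lower too. The genes with the lowest p against D12 were Tagln, Acta2 and Cdkn2b, the last at 13.7, 9.3 and 8.05 CPM. In the neural controls all 19 were lower than at D0, led by Acta2, Tagln and Cnn1, with a median of -7.65, beside 13.8% called lower and a median of -0.02 over all genes. In a fit of only the groups compared 15 of them were lower, where 1498 of all genes were called, against 4222 in the fit of all 16 libraries. Between ciNSLC and the controls edgeR with group as the only term called none of the 19, while edgeR with a batch term called 2 and the DESeq2 Wald test 4, all higher in ciNSLC. Of all genes they called 270, 648 and 995.

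Of 11 genes for TGF-beta latency and activation, 10 were tested, and 2 were lower at D4, 2 at D8 and 1 at D12, where 3.68%, 3.05% and 4.73% of all genes were called lower. The fit with a batch term called 3, 4 and 3, 1 of them higher at D8 and 1 at D12. Of all genes that fit called 2328, 2185 and 2868, against 1261, 1248 and 1840 without the term. At D4 Fbn1, whose fibrillin-1 microfibrils hold the latent complex in the matrix, fell by 1.99 on the log2 scale (SE 0.32, edgeR adjusted p = 0.0026), and Thbs1, encoding the activator thrombospondin-1, fell by 4.46 (SE 1.21, adjusted p = 0.044). The Thbs1 call was lost without an expression filter, without the second D0 library (-2.97, adjusted p = 0.25) and without any one D4 library. Fbn1 was also lower at D8, by 1.82 (SE 0.32, adjusted p = 0.0052). Lrrc33, a myeloid anchor of latent TGF-beta, was called lower at D8 and D12, but its D0 libraries held 0.479 and 28 CPM, the latter being the myeloid-rich one, and without that library the changes were 0.27 and 0.08. With the replicate block the D8 call was lost (adjusted p = 0.058). In ciNSLC against D0, 6 of the 10 were lower and 2 higher, where 16.5% of all genes were called lower and 11.7% higher. The higher ones were Itgb8, at 320, 283 and 98.4 CPM against 11.1 and 6.02 CPM (log2 change 4.77, SE 0.63, adjusted p = 1.2e-04), and Itgav (1.19, SE 0.42, adjusted p = 0.0494, lost without either D0 library or ciNSLC replicate 1 or 2), which encode the subunits of the integrin alpha-v beta-8, an activator of latent TGF-beta. Itgb8 was also at 209 CPM in SCR029 and 223 CPM in priNPC. The lower genes with the lowest p were Fbn1 (-3.55), Lrrc32 (-4.09), which encodes the cell-surface anchor GARP, and Furin (-1.51), the protease that cuts the ligand precursor.

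Among 8 related receptors and co-receptors, the activin type II receptor Acvr2a was the one gene called against D0 under treatment, with log2 changes of -2.10 (SE 0.26, edgeR adjusted p = 6.6e-04) at D4, -1.52 (SE 0.26, adjusted p = 0.0046) at D8 and -1.48 (SE 0.26, adjusted p = 0.0041) at D12. A count of 1 in 8 is close to the 7.22%, 7.15% and 10.5% called over all genes. The D8 call was lost in a fit of only the groups compared (adjusted p = 0.057). Eng, the co-receptor endoglin, was 1.38 higher at D12 than at D4 (SE 0.31, adjusted p = 0.028), a call that leaving out any library but D12 replicate 3 ended. In ciNSLC 4 of the 8 were lower than at D0, where 16.5% of all genes were called lower, among them Tgfbr3, the co-receptor betaglycan, which presents the TGF-beta 2 ligand to TGFBR2. Tgfbr3 was at 76.4 and 88.2 CPM at D0, 8.59, 9.03 and 18.7 CPM in ciNSLC, 2.41 CPM in SCR029 and 3.15 CPM in priNPC. Its ciNSLC level was thus between those of the fibroblasts and the controls, with log2 changes of -2.76 against D0 (SE 0.33, adjusted p = 6.3e-05) and 2.12 against the controls (SE 0.36, adjusted p = 0.0096). The latter was 1.92 with priNPC as the only control (adjusted p = 0.058) and 2.10 in a fit of only these groups (adjusted p = 0.18). The other leading genes were Eng, with 13 counts over the 3 ciNSLC libraries, and Acvrl1, with 2.

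In the activin and nodal branch, whose type I receptors A83-01 also inhibits, 7 of 11 genes were tested, and 2 were called at each of D4, D8 and D12, 1 higher and 1 lower, where 7.22%, 7.15% and 10.5% of all genes were called. Inhbb, encoding an activin subunit, rose at all 3 days: it was at 2.17 and 13.5 CPM at D0 and 38.9, 70.2 and 66.7 CPM at D4, and the log2 changes were 2.90 (SE 0.67, edgeR adjusted p = 0.02), 2.76 (SE 0.66, adjusted p = 0.026) and 2.61 (SE 0.66, adjusted p = 0.024) at D4, D8 and D12. Fst, encoding the activin antagonist follistatin, fell, with changes of -3.66 (SE 0.70, adjusted p = 0.0084), -2.45 (SE 0.68, adjusted p = 0.0475) and -3.02 (SE 0.69, adjusted p = 0.015). The Inhbb calls were lost without the first D0 library (adjusted p = 0.064, 0.086 and 0.095) and without replicate 2 of the treated group, and at D8 and D12 without its replicate 3. They were also lost in a fit of only the groups compared. The Inhbb changes rest on which D0 library is used: they were 2.11, 1.97 and 1.82 without the first and 4.75, 4.61 and 4.46 without the second. The Fst call at D12 was lost without the second D0 library (adjusted p = 0.069), and that at D8 without any one D0 or D8 library. In ciNSLC 4 of the 7 were lower than at D0 and Gdf11 was higher (1.37, SE 0.26, adjusted p = 0.0014), where 16.5% of all genes were called lower and 11.7% higher. The lower ones with the lowest p were Fstl3, with 6 counts over 3 ciNSLC libraries, Fst (-6.27) and Inhba (-6.27).

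Of 10 SMADs and their co-regulators, Smad3 alone was called during the treatment, and 1 in 10 is close to the 7.22%, 7.15% and 10.5% called over all genes at D4, D8 and D12. The fit with a batch term called 2 at D4 and 2 at D12. Of all genes that fit called 2328 and 2868 on these days, against 1261 and 1840 without the term. Smad3 was at 49.2 and 61.8 CPM at D0, 130, 127 and 121 CPM at D4, 136, 141 and 168 CPM at D8, and 133, 161 and 146 CPM at D12. The treated libraries did not overlap D0, and the log2 changes were 1.18 (SE 0.31, edgeR adjusted p = 0.038), 1.42 (SE 0.31, adjusted p = 0.018) and 1.40 (SE 0.31, adjusted p = 0.014). Leaving out either D0 library ended all 3 calls, with adjusted p from 0.062 to 0.22, and any one D4 library or D8 replicate 3 ended that of its day, as did a fit of only the groups compared at D4. In ciNSLC Smad3 was at 31.7, 50.1 and 20.4 CPM, lower than at D12 by a log2 change of -2.11 (SE 0.28, adjusted p = 1.7e-04). The co-repressor genes Tgif1 and Tgif2 parted in ciNSLC against D0, at -1.51 (SE 0.29, adjusted p = 0.0018) and 2.41 (SE 0.40, adjusted p = 7.1e-04), and Smad2 was lower, at -0.58 (SE 0.18, adjusted p = 0.026). The Smad2 call was lost without the second D0 library (-0.42, adjusted p = 0.22) or any one ciNSLC library.

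Across the 16 libraries, which share the groups and batches, the members' log2 levels correlated to different degrees. Tgfb1, Tgfbr2 and Tgfbi had the highest correlations with each other, with Pearson's r of 0.90 for Tgfb1 with Tgfbr2, 0.90 for Tgfb1 with Tgfbi and 0.87 for Tgfbr2 with Tgfbi, all of them genes low in ciNSLC and controls. Skil had r from -0.35 with Tgfbr1 to 0.60 with Ltbp2 and of at most 0.42 with the other members, and Tgfbr1 had no r above 0.57. Among 9333 genes reaching 10 CPM in at least 1 group mean, those most like each member were Calhm2 (0.981) and Rian (0.974) for Tgfb1, Hpse (0.936) and Cyp7b1 (0.932) for Tgfb2, and Ephb4 (0.957) and Rgnef (0.955) for Tgfb3. They were Timp2 (0.917) and Slc39a1 (0.908) for Ltbp1, and Loxl3 (0.946) and Xaf1 (0.943) for Ltbp2. For the receptors they were Kdelr1 (0.907) and Cited2 (0.884) with Tgfbr1, and B4galt1 (0.98) and Igf2r (0.98) with Tgfbr2. Skil was matched by Nxf1 (0.855) and Slc7a2 (0.838), and Tgfbi by Pkd2 (0.971) and Enpp1 (0.968). These correlations are descriptions over libraries of a few groups.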

How the data were processed

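Gene expression was measured by RNA sequencing of 16 mouse libraries made from amplified total RNA. Per the submitters' processing notes the tools and build were TopHat2 2.0.13, featureCounts from Subread, edgeR and mm9; the strand setting of the counting is not given in the sources used here. The deposited counts are, per the file headers, raw counts per gene and entered every fit. The deposited exon length in bases, another unit, served only to scale levels per kb. The other 48 columns of values were not used. Counts were tested with edgeR 4.0.16 in R 4.3.3: default expression filter, TMM scaling, robust quasi-likelihood F-test with group as the only term, Benjamini-Hochberg adjustment over all genes tested. One fit held the 14 fibroblast-derived libraries, from D0 to ciNSLC (17455 genes), and another all 16, for comparisons with SCR029 and priNPC as one control group (17636 genes). The biological coefficient of variation was 0.418 and 0.441. The script was tested on simulated data with a smaller spread between libraries than here and no batch, which checks the code and not the calls. Within-batch values are ratios of mean levels, with no test. Correlations used log2(CPM + 1).

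No 2 libraries held identical values. One count corresponds to a few hundredths of a CPM, and small counts carry counting error beside the spread between libraries.

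The members, lists and rules were chosen with earlier results of these data known, so none is independent support. One gene of a pathway list is not reported here. Named besides the 9 members were, per list and comparison, up to 3 called genes with the lowest p in the direction with more calls and up to 2 in the other, and per member the 2 genes with the highest Pearson's r. Alternatives used limma 3.58.1 (voom) and DESeq2 1.42.0, other scalings and filters, a batch term, the replicate number as a block, fewer groups, 1 control library, and libraries left out. A further alternative left out the mitochondrial rRNA genes.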

Additional observations from a re-analysis of the deposited data

How the results depend on the processing

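Counts of members called moved as follows. D4 against D0 (2) became 1 without an expression filter and 1 in a fit of only the groups compared, as did D8 against D0 (3), with 1 and 1. D12 against D0 (1) became 3 with a batch term, 3 with the replicate block and 3 in batch 2 libraries only. D12 against D4 (1) became 3 with a batch term, 3 with the replicate block, 5 in batch 2 only and 2 with DESeq2. ciNSLC against the controls (1) became 2 in batch 2 only, 2 with DESeq2, 0 in only the groups compared and 0 with priNPC as the only control. The batch 2 fit was chosen after seeing the data. Leaving out 1 library at a time gave 0 to 2 at D4, 1 at D8, 0 to 1 at D12 and 1 to 2 for D12 against D4; the values of 0 came without D0 replicate 2. It gave 6 to 7 for ciNSLC against D0, 5 to 6 against D12, 7 for controls against D0 and 0 to 1 for ciNSLC against controls.

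The replicate numbers carry shared structure: number 1 is batch 1, and numbers 2 and 3 are batch 2. Deviations of same-numbered libraries correlated at 0.15 to 0.75 for number 1 (10 of 10 pairs over 0.1), 0.01 to 0.42 for number 2 (8 of 10) and -0.03 to 0.50 for number 3 (3 of 6), beside a median of -0.19 for different numbers. The deviations cancel within each group, so positive values for same numbers bring negative ones for different numbers. Pairs of different numbers also lie both within batch 2 and between the batches. These values therefore cannot decide whether libraries are paired beyond the batch. The titles of the controls carry no number. With the numbers of the column headings as a replicate block, chosen after seeing the data, 7 members were called for controls against D0 and 1 for ciNSLC against controls, as without it.

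Signs reversed only for uncalled members and Lrrc33. In batch 2 only, the log2 changes were 0.42 (Skil) and 0.79 (Tgfbi), -0.04 (Tgfb1) and -0.04 (Tgfbr2) at D12 against D0, 0.06 (Skil) at D4, and 0.46 (Ltbp2), 0.70 (Skil) and -0.23 (Tgfbi) for ciNSLC against controls. For the last comparison Ltbp2 gave 0.10 with DESeq2 and 0.41 with SCR029 alone, Tgfbr1 0.07 with SCR029 alone, Skil 0.04 with voom and 0.72 with priNPC alone, Tgfbr2 -0.10 with voom and -0.13 with that block, and Tgfbi -0.50 with priNPC alone. Skil at D12 against D0 was 0.01 with the 1 CPM filter and 0.09 with upper-quartile scaling, Skil in controls against D0 0.01 with SCR029 alone, and Tgfbr2 at D8 -0.05 with the replicate block. With single libraries left out, D8 against D0 ran from -0.61 to 0.09 (Tgfb3), -0.04 to 0.28 (Tgfbr2) and -5.59 to 0.27 (Lrrc33). D12 against D0 ran from -0.29 to 0.59 (Tgfb1), -0.49 to 0.01 (Tgfbr1), -0.02 to 0.30 (Tgfbr2), -0.34 to 0.35 (Skil), -1.47 to 0.54 (Tgfbi) and -5.78 to 0.08 (Lrrc33). D12 against D4 ran from -0.21 to 0.52 (Tgfbr1), -0.12 to 0.02 (Tgfbr2) and -0.04 to 0.64 (Skil), and ciNSLC against controls from -1.20 to 0.72 (Ltbp2), -0.66 to 0.42 (Tgfbr2), -0.24 to 0.00 (Skil) and -0.27 to 0.70 (Tgfbi). The cause was not tested.

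All-gene counts moved by over 1.5 times: D4 1261 to 548 (only the groups compared), 2262 (DESeq2), 2328 (batch term) and 2626 (batch 2); D8 1248 to 550, 2298, 2185 and 2738; D12 1840 to 898, 2935, 2868 and 3948. D12 against D4 gave 675, and 1589, 1400 and 2894 under the last 3 of these and 1097 with the replicate block. ciNSLC against D12 went from 4808 to 8148 in batch 2, controls against D0 from 4222 to 1498 in only the groups compared, and ciNSLC against controls from 270 to 23 in only the groups compared, 463 with SCR029 alone, 648 with a batch term, 995 with DESeq2 and 2148 in batch 2.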
